A study of Mus musculus with 6 samples.

Results

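Promoters at which an ATAC-seq peak was called in some but not all samples are described here for mouse intestinal crypts with and without Arid3a. The 6 peak lists were merged on chromosomes 1 to 19 wherever peaks shared at least 1 base. The promoters were chosen by their calls: a consensus peak had to be present in 2 to 4 of the 6 samples, and its summit had to lie between 1000 bp upstream and 100 bp downstream of the transcription start site (TSS) of a protein-coding gene. The summit was taken from the sample in which the peak ranked highest by fold enrichment within its own list. In all, 634 of 69957 consensus peaks met the rule, 0.906%, and they are called partly called promoters below. They lay nearest to 621 genes, of which 13 had 2 such peaks. The rule did not use genotype, gene identity or sequence.

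The study profiled chromatin accessibility in crypts of 3 WT mice and 3 Arid3a cKO mice (genotypes Arid3a WT and Arid3a KO in the labels), with tissue taken 1 month after tamoxifen was first given; both genotypes received the 3 daily doses. The cKO mice carried 1 copy of Villin Cre-ERT2 and were Arid3a fl/fl, so recombination was limited to cells with an active Villin promoter, the epithelium, and any stromal cells in the preparation kept the gene. No sort on epithelial markers was described for the ATAC-seq cells, and neither the age of the mice nor the Cre status of the WT mice is given in the sources used here. The Arid3a promoter peak was called in 6 of 6 samples, so peak calls at the targeted gene did not check the labels.

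ATAC-seq marks DNA that a transposase can reach, and a promoter peak shows that the region around a start site was open in part of the cells. Many mammalian promoters lie in CpG islands, stretches that keep unmethylated CpG dinucleotides and are open in most tissues whether or not the gene is strongly transcribed. Promoters with few CpGs belong more often to genes of specialised cells, and are opened by factors that those cells express. A bulk peak list cannot tell a promoter open in few cells from one weakly open in many.

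The promoters of 7 genes are shown by sequence, because they hold calls of one genotype alone and extremes of CpG content. The first 5 were called in every sample of one genotype and no sample of the other, and the last pair are among those with the lowest CpG content called in 4 samples. Each line gives the plus strand of GRCm38, 5′ to 3′, reaching 50 bp to each side of the summit, with every CpG in capitals.
Bmf, chr2:118547648-118547748: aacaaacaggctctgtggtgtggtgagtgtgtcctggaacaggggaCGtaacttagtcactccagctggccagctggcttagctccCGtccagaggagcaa
Tcerg1l, chr7:138397779-138397879: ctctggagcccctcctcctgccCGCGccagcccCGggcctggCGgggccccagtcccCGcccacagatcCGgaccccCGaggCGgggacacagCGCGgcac
Cpsf4l, chr11:113710505-113710605: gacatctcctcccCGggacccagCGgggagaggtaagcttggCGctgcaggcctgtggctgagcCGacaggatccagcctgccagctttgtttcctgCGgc
1700001K19Rik, chr12:110682787-110682887: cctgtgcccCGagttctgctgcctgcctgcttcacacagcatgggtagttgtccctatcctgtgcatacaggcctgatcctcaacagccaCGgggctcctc
Mapk1ip1l, chr14:47307822-47307922: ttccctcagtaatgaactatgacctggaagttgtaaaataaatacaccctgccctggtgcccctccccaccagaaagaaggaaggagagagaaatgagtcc
Ugt1a6a, chr1:88138245-88138345: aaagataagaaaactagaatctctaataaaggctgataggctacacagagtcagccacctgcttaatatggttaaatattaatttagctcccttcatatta
Mllt3, chr4:87806814-87806914: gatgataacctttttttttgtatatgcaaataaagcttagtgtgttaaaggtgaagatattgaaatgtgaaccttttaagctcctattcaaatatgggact
Tcerg1l had 10 CpGs in this window and Cpsf4l 5, whereas the windows of Mapk1ip1l, Ugt1a6a and Mllt3 held 0. In the annotation the summits of Bmf, Mapk1ip1l, Ugt1a6a and Mllt3 lay in introns, and the other 3 lay between genes. The G+C content of the 7 windows ran from 29.7% in Mllt3 to 80.2% in Tcerg1l.

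The share of the partly called promoters found in a sample followed the length of that sample's list. WT 1, WT 2 and WT 3 called 15.9%, 50% and 69.9% of the 634, the last of these being 443 promoters. cKO 1, cKO 2 and cKO 3 called 506, 196 and 334, which is 79.8%, 30.9% and 52.7%. The lists held 39773, 49764 and 54010 autosomal peaks in WT and 57140, 45557 and 50444 in cKO samples, in the same replicate order. The order of the samples by partly called promoters was therefore the order by list length, with WT 1 and cKO 2 lowest, and the genotypes overlapped.

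**Figure D1:**
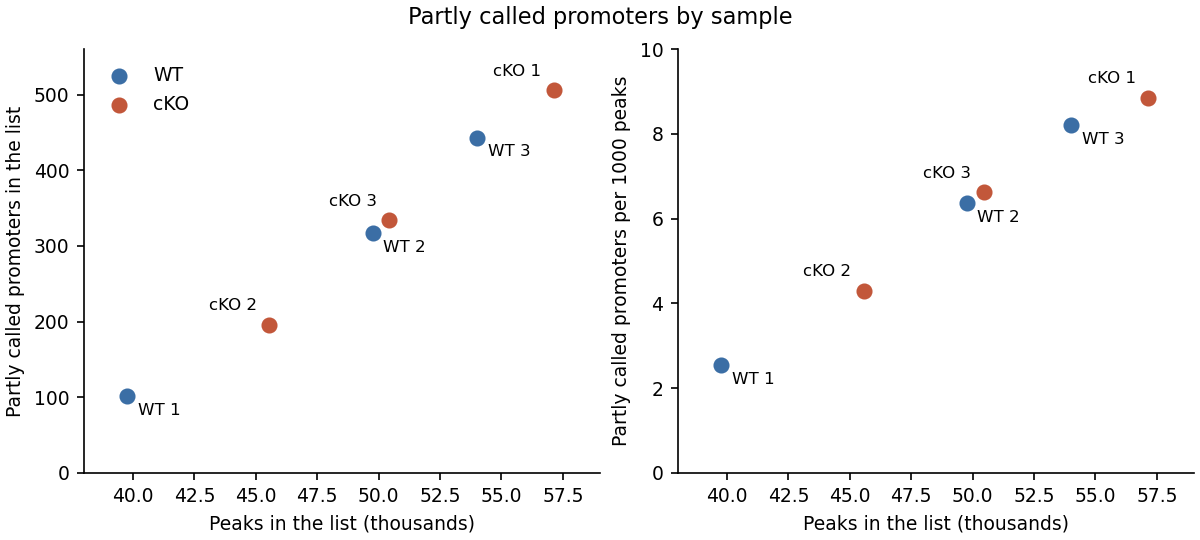
Number of partly called promoters in each sample (left) and the same number per 1000 peaks of the list (right), against the number of autosomal peaks in that list; each point is 1 sample, blue for WT and red for cKO. The points rise together from WT 1, with 15.9% of the 634 promoters in 39773 peaks, to cKO 1, with 79.8% in 57140, and the genotypes are interleaved.

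Longer lists also held more of these promoters for their length. The number per 1000 peaks was 2.54, 6.37 and 8.20 in WT 1, WT 2 and WT 3 and 8.86, 4.30 and 6.62 in cKO 1, cKO 2 and cKO 3. WT samples averaged 5.70 ± 2.89 and cKO samples 6.59 ± 2.28 (mean ± SD, n = 3; exact two-sided permutation test p = 0.6, adjusted p = 0.7 over 5 per-sample measures). The number called was 287 ± 173 in WT and 345 ± 155 in cKO samples (n = 3; exact permutation p = 0.7, adjusted p = 0.7). No p below 0.1 is possible with 3 samples in each genotype. Both counts come from the same calls that chose the promoters, so they depend on the selection and these p-values are descriptive only. When WT 1 was left out and the lists were merged again, cKO samples held on average 16 fewer of them than WT samples, and without cKO 1 the difference was -22.7.

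A depth difference between the libraries may be read from the background that the peak caller used, inferred from the deposited fold and p-value columns. In fragments per base, WT 1, WT 2 and WT 3 had 2.11, 1.82 and 2.01, and cKO 1, cKO 2 and cKO 3 had 2.29, 1.75 and 2.18. At promoters called in all 6 samples, the median fold was 9.04, 11.9 and 11.7 in WT 1, WT 2 and WT 3 and 10.4, 10.9 and 9.26 in cKO 1, cKO 2 and cKO 3. The inferred background is the commonest fitted value, shared by 142 of 4000 sampled peaks in WT 1 and 620 of 4000 in cKO 1. The sample with the most calls, cKO 1, had the highest background, and the sample with the fewest, WT 1, had the lowest median fold. The order of all 6 samples by either measure was not fully that of their calls. The part of depth or of signal over background in the calls was not tested.

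Most calls at the partly called promoters ranked low in their lists. The rule favours this, since peaks missing from some lists tend to be weak ones. The contrast with promoters called in all 6 samples is therefore not an independent result. Ranked by fold within its own list, the median call lay at percentile 22.2, against 84.1 for the 9695 protein-coding promoters called in all 6 samples. The per-sample medians were 16.0, 21.4 and 21.7 in WT 1, WT 2 and WT 3 and 25.9, 18.2 and 23.01 in cKO 1, cKO 2 and cKO 3 (exact permutation p = 0.4, adjusted p = 0.667, n = 3). The median fold over background ran from 3.59 in WT 1 to 4.42 in cKO 1. Of the 1897 calls, 849 had a −log10 q under 5, 44.8%, compared with 0.920% of the calls at promoters found in all 6 samples. Other consensus peaks called in 2 to 4 samples were alike, with a median percentile of 23.5 and 43.0% of calls under that q. At least 1 call above percentile 50 was seen for 104 of the 634, and above percentile 75 for 8.

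Few absent calls were peaks displaced by a short distance. Among the 1907 promoter and sample pairs without a call, 89 had another peak with its summit within 1000 bp, 4.67%. The range over samples was 3.94% in WT 1 to 6% in cKO 3. The consensus peaks were also narrow, with a median width of 553.5 bp against 1338 bp for promoters called in all 6 samples. The rule favours this too, since peaks from fewer lists were merged at these promoters. The other consensus peaks of 2 to 4 samples had a median width of 523 bp.

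The spread over genotypes was close to that of all partly called peaks in the genome. More cKO than WT samples called 235 of the 634, 37.1% (95% Wilson interval 33.4% to 40.9%), while 41.3% of all 16612 autosomal consensus peaks of 2 to 4 samples did so. More WT than cKO samples called 123, 19.4% (16.5% to 22.7%), against 16.9% of all. Equal numbers of WT and cKO samples called 276, 43.5%, against 41.8% of all. The commonest pattern was 2 WT and 2 cKO samples, with 154 promoters, 24.29%, against 19.96% of all. Among all 16612 peaks the commonest was 1 WT with 1 cKO sample, 21.85%, against 19.24% of the 634. These intervals cover counting error only, since all peaks come from the same 6 lists.

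**Figure D2:**
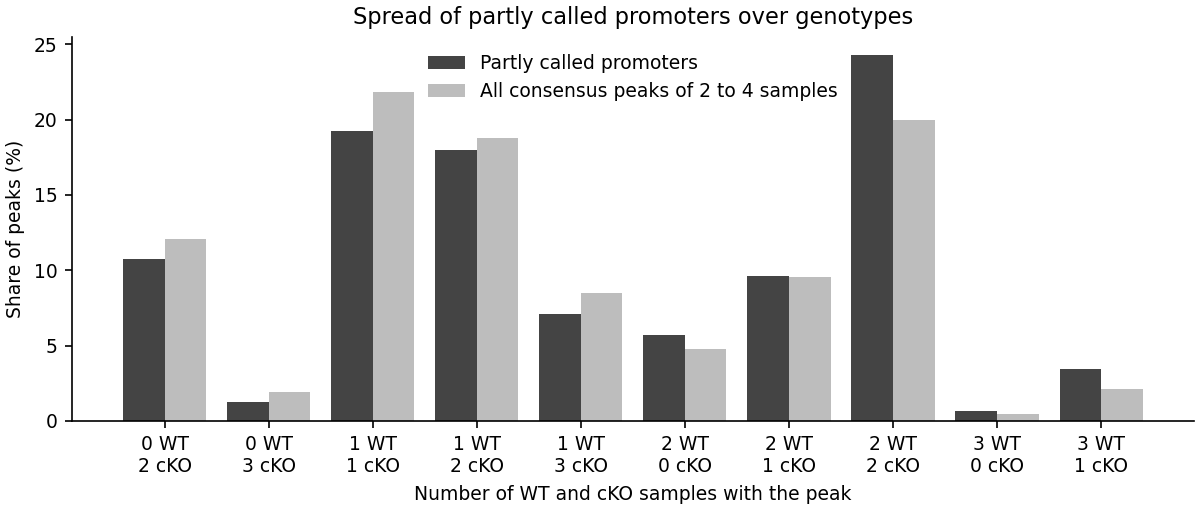
Share of the 634 partly called promoters (dark bars) and of all 16612 autosomal consensus peaks of 2 to 4 samples (light bars) with each pairing of the number of WT and cKO samples that called the peak. Both sets have their tallest bars at 1 WT with 1 cKO and 2 WT with 2 cKO samples, and their shortest at 3 WT with 0 cKO and 0 WT with 3 cKO.

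The samples that most often shared a promoter were those with longer lists. Of the 50 possible sets of 2 to 4 samples, 47 were seen. The most frequent was WT 2, WT 3, cKO 1 and cKO 3, with 81 promoters, 12.8%, and the same set held 11.7% of all consensus peaks of 2 to 4 samples. WT 3, cKO 1 and cKO 3 shared 51, WT 3 and cKO 1 shared 48, and cKO 1 and cKO 3 shared 45. For 180 promoters, 28.4%, the calls were exactly those of the longest lists, compared with 29.4% of all consensus peaks of 2 to 4 samples. The excess of cKO calls was not seen when every list was shortened to the same length: 149 promoters were then called in more cKO than WT samples and 150 in more WT than cKO samples.

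Complete separation of the genotypes was rare. A peak in every cKO sample and in no WT sample was found at 8 promoters, 1.26%, against 1.94% of all consensus peaks of 2 to 4 samples. The reverse, a peak in every WT sample and in no cKO sample, was found at 4 promoters, 0.631%, against 0.476% of all. These shares were near the background of the genome. The counts moved with the filter: at a −log10 q of 5 or more they were 19 and 1, and with lists of equal length 10 and 8.

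The 8 promoters called in cKO samples alone belonged to Oas1h, Tshz2, Cpsf4l, Mapk1ip1l, Syt15, Asah2, Arhgef4 and Ppp1r42. Oas1h, a member of the oligoadenylate synthetase family of antiviral genes, had the strongest calls, with a fold of 7.12, 5.25 and 6.01 in cKO 1, cKO 2 and cKO 3 and within-list percentiles of 59.5, 41.7 and 50.8. Its summit lay 29 bp upstream of the TSS in a CpG-poor window. Tshz2, which encodes a zinc finger transcription factor, had a fold of 5.61, 4.30 and 4.79. A second partly called promoter peak of Tshz2 was called in 2 WT and 2 cKO samples (WT 1, WT 3, cKO 1 and cKO 3), so the gene as a whole was not called in cKO samples alone. Oas1h was highest in cKO 1 and lowest in cKO 2, and Tshz2 likewise.

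Asah2, the neutral ceramidase, had a fold of 4.49, 4.02 and 4.30 in cKO 1, cKO 2 and cKO 3. Its summit lay 21 bp downstream of the TSS in an annotated UTR, 1 CpG was present within 250 bp of the summit, and an ARID3 consensus (ATCAAA or ATTAAA) was found within 100 bp of it. The Tshz2 peak called in cKO samples alone held this consensus too, those of Oas1h, Arhgef4 and Ppp1r42 did not, and 10.7% of all partly called promoters did. Another promoter peak of Asah2 was called in all 6 samples. Syt15, of the synaptotagmin family of membrane trafficking proteins, had a fold of 3.65, 4.44 and 5.46, and Cpsf4l had 5.76, 4.70 and 4.39. The peaks of Asah2, Syt15 and Cpsf4l thus differed in which cKO sample was highest.

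The lowest ranks in this group were those of Arhgef4 and Ppp1r42. Arhgef4 was called at percentiles 18.6, 4.94 and 20.8. Ppp1r42, a regulatory subunit of a protein phosphatase, was called at percentiles 39.7, 13.3 and 6.41. Mapk1ip1l had a fold of 5.49, 4.68 and 3.61, with its summit 678 bp upstream of this TSS, and the gene had another promoter peak in all 6 samples.

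The 4 promoters called in WT samples alone belonged to Tcerg1l, 1700001K19Rik, Bmf and Fam19a3. Tcerg1l had a fold of 3.24, 4.46 and 3.98 in WT 1, WT 2 and WT 3, at percentiles 8.03, 26.0 and 19.6. Its window was the most CpG-rich of the 4, with 59 CpGs within 250 bp of the summit. Bmf, a pro-apoptotic member of the Bcl2 family, had a fold of 2.599, 2.98 and 2.59, at percentiles 0.968, 3.18 and 1.74. Its −log10 q was 3.70, 8.43 and 7.76, and a further Bmf promoter peak was called in all 6 samples. Fam19a3 was called at percentiles of at most 2.62, near the bottom of each list.

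**Figure D3:**
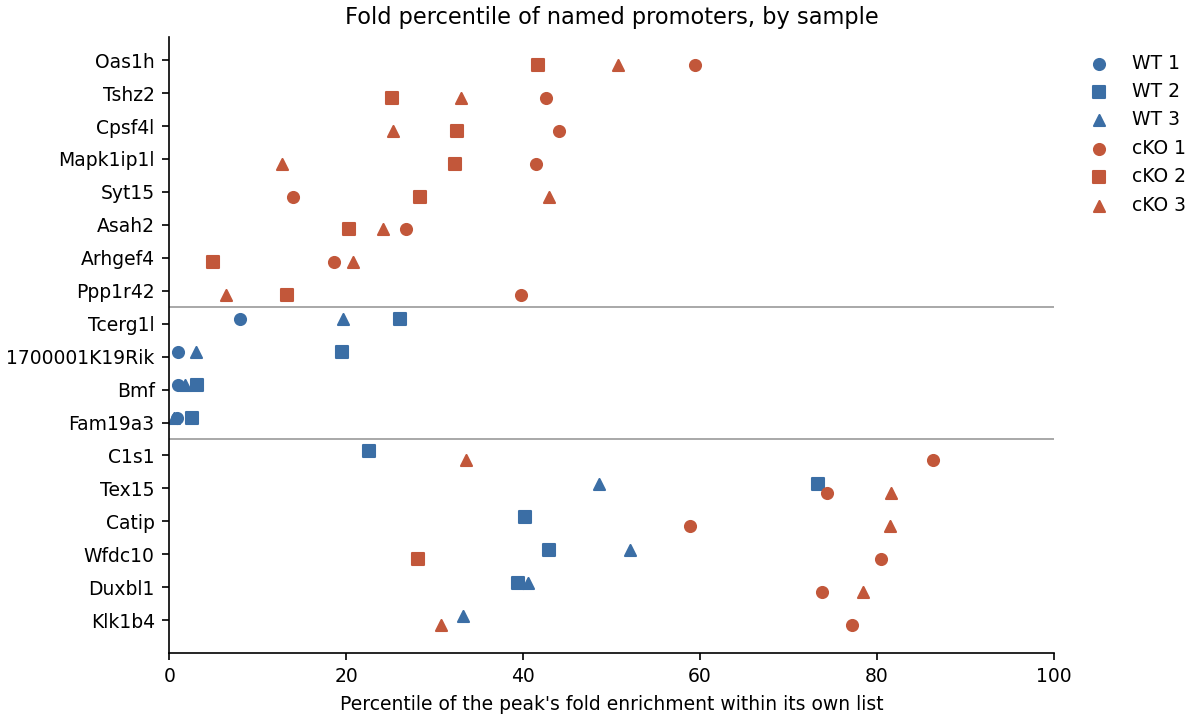
Percentile of each peak's fold enrichment within its own list, for the promoters called in cKO samples alone (top), in WT samples alone (middle) and the 6 with the highest percentile in any sample (bottom); colour gives the genotype, the marker shape the replicate, and a sample without a marker had no peak there. Oas1h reaches percentile 59.5 in cKO 1, whereas Bmf and Fam19a3 stay below percentile 5.

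The highest single ranks did not follow genotype alone. C1s1, a protease of the complement cascade, reached percentile 86.4 in cKO 1 with a fold of 10.95, but percentile 22.6 in WT 2 and 33.5 in cKO 3. Tex15, a gene known for its role in male germ cells, had a fold of 9.21 and 5.97 in WT 2 and WT 3 and 8.89 and 9.24 in cKO 1 and cKO 3, with no call in WT 1 or cKO 2. Tex15 was the only CpG-rich promoter of the 6 with the highest ranks.

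Catip, which takes part in the formation of cilia, reached percentile 81.4 in cKO 3 and was also called in WT 2 and cKO 1. Wfdc10 ranked highest in cKO 1, at percentile 80.5, and at percentile 42.9 and 52.0 in WT 2 and WT 3. Duxbl1 and Klk1b4 reached percentiles 78.5 and 77.1. Both belong to gene families with close copies, so reads there may have come from more than 1 locus. Each of the 6 ranked highest in cKO 1 or cKO 3, and each was also called in at least 1 WT sample. Calls above percentile 75 numbered 0 in each WT sample and 3, 0 and 5 in cKO 1, cKO 2 and cKO 3. The same count was not made for other consensus peaks of 2 to 4 samples. The 6 were picked by their highest rank, so no genotype difference is read from them or from these counts.

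The partly called promoters were less dense in CpGs than promoters called everywhere. Within 250 bp of the summit, their median CpG observed/expected ratio was 0.386, their median G+C content 55.5% and their median number of CpGs 13. Promoters called in all 6 samples had a median ratio of 0.802, a G+C content of 64.5% and 41 CpGs. A window was called CpG-rich at a ratio of at least 0.6 with G+C of at least 50%, and CpG-poor at a ratio below 0.4. By this measure 203 partly called promoters were CpG-rich, 32.0% (95% Wilson interval 28.5% to 35.7%), 107 were intermediate and 324 were CpG-poor, 51.1% (47.2% to 55.0%). Of the promoters called in all 6 samples, 79.9% were CpG-rich and 9.48% CpG-poor. No test was made between these sets of peaks, which share their samples.

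**Figure D4:**
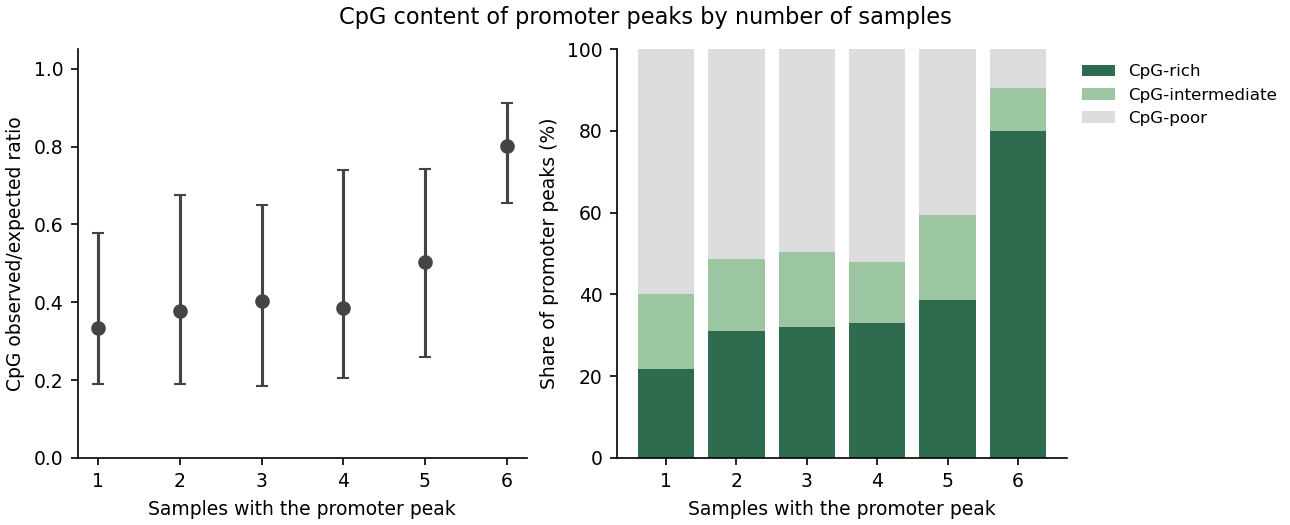
CpG observed/expected ratio (left, median with the 25th to 75th percentile as bars) and the share of CpG-rich, intermediate and CpG-poor windows (right) of protein-coding promoter peaks, by the number of samples in which the peak was called. The median is 0.802 for peaks of 6 samples and 0.504 or lower for peaks of 1 to 5 samples.

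CpG content was lower in every set called in fewer than 6 samples. The CpG-poor share was 51.3%, 49.7% and 52.0% for promoters called in 2, 3 and 4 samples, 59.96% in 1 sample and 40.5% in 5 samples. Partly called peaks away from protein-coding promoters were poorer still, with a median ratio of 0.216 and a CpG-poor share of 87.0%. The shares depended on how peaks were joined: when windows reaching 250 bp to each side of the summits had to overlap by 50%, the rule found 1366 promoters, of which 46.3% were CpG-rich and 36.7% CpG-poor.

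CpG-poor partly called promoters belonged more often than CpG-rich ones to genes with another promoter peak called in all 6 samples. Of the 318 genes with a CpG-poor partly called promoter, 109 had another promoter peak called in all 6 samples, 34.3%, against 22 of 201 genes with a CpG-rich one, 10.9%. Over all 621 genes the number was 158, 25.4%. All of these shares lay below the 48.8% of all 20722 protein-coding genes with a promoter peak in all 6 samples. The number of annotated starts per gene was not taken into account. Mllt3, Ugt1a6a and Ly6g5b had the lowest CpG ratios among promoters called in 4 samples. Mllt3, a chromatin reader of the super elongation complex, had 0 CpGs within 250 bp, a fold of 3.69 in WT 1 and 3.86, 4.17 and 4.61 in cKO 1, cKO 2 and cKO 3, and its gene had another promoter peak in all 6 samples. Ugt1a6a, a glucuronosyltransferase of a locus with many alternative first exons, was called at a fold of 4.53, 3.56, 2.92 and 4.57 in WT 2, WT 3, cKO 1 and cKO 3.

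The highest CpG ratios among promoters called in 4 samples were those of Ctnnd2, Arhgef7 and Scn8a. Ctnnd2, a catenin of neural cell junctions, had 95 CpGs within 250 bp and a fold of 4.61, 4.31, 3.65 and 4.41 in WT 2, WT 3, cKO 1 and cKO 3. Scn8a, a voltage-gated sodium channel of neurons, had 76 CpGs and a fold of 8.07, 5.33, 7.68 and 4.05 in WT 2, WT 3, cKO 1 and cKO 2. None of these 3 was called in WT 1. Ctnnd2 and Arhgef7 were missed in cKO 2 and Scn8a in cKO 3.

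Per sample, the composition of the called promoters varied little. The median CpG ratio was 0.394, 0.430 and 0.367 in WT 1, WT 2 and WT 3 and 0.377, 0.366 and 0.364 in cKO 1, cKO 2 and cKO 3 (0.397 ± 0.0315 against 0.369 ± 0.00710, n = 3; exact permutation p = 0.2, adjusted p = 0.5). The CpG-poor share was 49.9% ± 2.09 in WT and 52.5% ± 1.10 in cKO samples (n = 3; exact permutation p = 0.2, adjusted p = 0.5). The CpG-rich share was 33.7%, 36.0% and 33.6% in WT and 30.2%, 31.6% and 29.9% in cKO samples, so that every WT value lay above every cKO value.

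The difference in the CpG-rich share was -3.82 percentage points (cKO minus WT, n = 3; exact permutation p = 0.1, the smallest this design can give), a comparison added after the values were seen. Restricted to a −log10 q of 5 or more it was 2.34 points, of opposite sign (exact permutation p = 0.8). The CpG-rich share of all promoter peaks in a list was 77.1% ± 1.30 in WT and 76.4% ± 0.926 in cKO samples (n = 3; exact permutation p = 0.5). For peaks of 2 to 4 samples away from promoters, the CpG-rich share was 3.603% ± 0.1985 in WT samples. It was also lower in cKO samples, at 3.123% ± 0.3895 (n = 3, exact permutation p = 0.2). More cKO than WT samples called 31.0% of the CpG-rich partly called promoters and more WT than cKO samples 25.1%, against 35% and 21.8% of the CpG-rich peaks of 2 to 4 samples away from promoters. For CpG-poor ones the shares were 39.5% and 16.7%, against 41.9% and 16.7%.

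The partly called promoters were also less tightly centred on the TSS. The median distance of the summit from the nearest TSS was 94.5 bp, against 57 bp for promoters called in all 6 samples, and 51.6% against 72.4% lay within 100 bp. More than 500 bp upstream lay 107 summits, 16.9%, against 4.15%. By the annotation, 178 summits fell in UTRs, 34 in coding exons, 30 in noncoding exons, 199 in introns and 193 between genes. Just inside the upstream limit were Zp2 at 998 bp and Rexo1 at 991 bp upstream, and just outside Stx7 at 1005 bp. Them7 and Sytl1 lay 100 bp downstream, at the limit, and Ccdc61 and Gpr146 fell 1 bp beyond it. More than 1 gene lay within reach of 8 promoters, 1.26%, against 9.45% of promoters called everywhere.

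Short consensus sequences were counted within 100 bp of the summit on both strands and without mismatches. A GC box (GGGCGG), the site of Sp and Klf factors, was found in 29.7% of the partly called promoters, 60.02% of those called in all 6 samples and 55.9% of all promoter peaks. An ETS site (CCGGAAG) was found in 2.52%, 14.5% and 12.9%, and a CCAAT box (CCAAT) in 18.6%, 27.8% and 26.9%. The NRF1 site (CGCATGCG) was found in 0.946%, 2.55% and 2.29%. These are sequence matches and not evidence of binding.

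Other sequences were more frequent among the partly called promoters. The TATA box (TATAAA) was found in 5.68%, against 2.59% of promoters called in all 6 samples and 2.96% of all promoter peaks. The values were 10.7%, 4.48% and 5.34% for the ARID3 consensus (ATCAAA or ATTAAA), 6.62%, 2.55% and 3.22% for AGATAA, the site of GATA factors, and 4.26%, 2.43% and 2.59% for AP-1 (TGACTCA). HNF4 (CAAAGTCCA or CAAAGTTCA) was at 0.631%, 0.640% and 0.725%. Within one CpG class the gaps were smaller for the TATA box, the GC box, NRF1, ARID3 and GATA. For AP-1 and GATA the direction turned in both classes. AP-1 was found in 6.79% of partly called promoters against 8.596% of those called in all 6 samples among CpG-poor windows. Among CpG-rich windows the AP-1 shares were 1.48% against 1.54%. For the TATA box the direction turned among CpG-rich windows only, at 1.48% against 1.92%. HNF4 was found in 0.926% of CpG-poor partly called promoters (3 of 324) and 3.92% of CpG-poor promoters called in all 6 samples. GATA was found in 10.8% of CpG-poor partly called promoters and 10.9% of CpG-poor promoters called in all 6 samples. Among CpG-rich windows its shares were 0.985% and 1.34%. ARID3 was found in 14.8% and 12.5% among CpG-poor windows, in the same order. The ETS site kept its gap among CpG-rich windows, at 3.94% against 16.7%.

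Across samples, 2 of the 9 motifs had no overlap between genotypes. This comparison, too, was added after values had been seen. The GC box was found in 36.6%, 35.3% and 32.1% of the promoters called in WT 1, WT 2 and WT 3 and in 28.5%, 28.6% and 26.6% of those called in cKO 1, cKO 2 and cKO 3 (exact permutation p = 0.1, adjusted p = 0.36 over 9 motifs). The ARID3 consensus was found in 5.94%, 9.46% and 10.4% in WT and in 10.7%, 11.7% and 12.3% in cKO samples (exact permutation p = 0.1, adjusted p = 0.36). Neither difference passed the correction, and WT 3 and cKO 1 differed by little for ARID3. Per-sample motif shares were computed for the partly called promoters only, so it is not known whether other peaks differed likewise. The CpG-rich share moved in the same direction as the GC box, and its part in these values was not tested.

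The partly called promoters were counted by gene family, and the 3 families with the highest shares among those of 40 or more genes are given first. Of all 20722 annotated protein-coding genes on these chromosomes, 621 had one, 3.00%, and 48.8% had a promoter peak in all 6 samples. Collagens, the fibres and networks of the extracellular matrix, had 7 of 42 genes, 16.7%. Cytochrome P450 enzymes, which oxidise steroids, drugs and fatty acids, had 12 of 100, and potassium, sodium and calcium channel subunits had 15 of 135, 11.1%. The families differ in size and no test was made over these lists, which were chosen with earlier results of these data known.

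**Figure D5:**
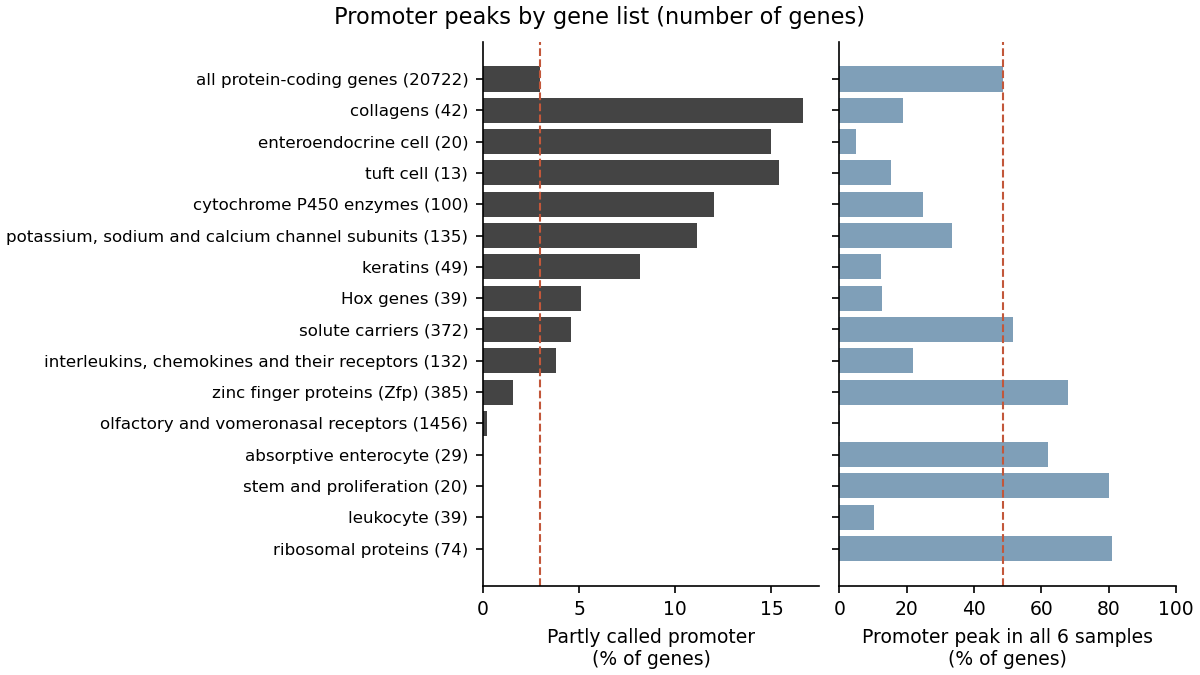
Share of the genes of each list that had a partly called promoter (left) and a promoter peak called in all 6 samples (right); the number of genes is in brackets and the dashed lines mark the value over all protein-coding genes, 3.00% and 48.8%. Collagens, P450 enzymes and channel subunits exceed the line on the left and fall short of it on the right, and ribosomal protein genes do the reverse.

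Channel promoters and P450 promoters differed in sequence type. Of the 16 channel promoters, 1 was CpG-poor, and of the 12 P450 promoters 8 were CpG-poor. Kcnc4, a voltage-gated potassium channel subunit, had a fold of 3.62, 4.605 and 5.55 in WT 1, WT 2 and WT 3 and 5.24 in cKO 1. Kcnma1, the large-conductance calcium-activated potassium channel, had a fold of 5.42 and 5.25 in WT 2 and WT 3 and 6.14 and 5.17 in cKO 1 and cKO 3. Kcnd2 was called in the same 4 samples as Kcnma1. The channel promoters were found 1, 11 and 14 times in WT 1, WT 2 and WT 3 and 15, 3 and 8 times in cKO 1, cKO 2 and cKO 3.

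Among P450 enzymes, Cyp2e1, which metabolises ethanol and small solvents, had its summit 3 bp from the TSS and a fold of 6.38, 3.81, 5.26 and 5.42 in WT 2, WT 3, cKO 1 and cKO 3. Cyp2c38 had a fold of 6.03 in WT 2, 6.999 in cKO 1 and 5.66 in cKO 3, and a TATA box within 100 bp of the summit. Cyp2d9 reached 8.52 in cKO 1 and 4.16 in cKO 2. Cyp2c38, Cyp2c70 and Cyp2d9 belong to clusters of similar genes, where reads may not be uniquely placed. Of the 12 P450 promoters, 4 were called in more cKO than WT samples, where 37.1% of all 634 and 41.3% of all consensus peaks of 2 to 4 samples were.

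The 7 collagen promoters were those of Col7a1, Col8a1, Col9a3, Col12a1, Col14a1, Col16a1 and Col18a1. Col14a1, a collagen that associates with fibrils, had a fold of 5.15 and 4.37 in WT 2 and WT 3 and 5.40 and 5.38 in cKO 1 and cKO 3. Col8a1 was highest in cKO 3, at 6.29, with 4.32 in WT 3 and 6.09 in cKO 1. Col12a1 was called in WT 2 and WT 3 alone, at percentiles 9.58 and 4.22. None of the 7 was called in WT 1 or cKO 2, and cKO 1 and WT 3 called 6 each.

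Solute carriers, a large family of membrane transporters, had 17 of 372 genes, 4.57%, and 13 of these promoters were CpG-poor. Slc24a2, a sodium, calcium and potassium exchanger, was strongest in cKO 3 with a fold of 7.87, and had 6.56 in WT 3, 5.48 in cKO 1 and 5.09 in cKO 2. Slc15a2, a peptide transporter, was called in WT 3 and cKO 1 at 5.64 and 3.65. Keratins, the filaments of epithelial cells, had 4 of 49 genes: Krt36, Krt81 and Krt87, hair and nail keratins, and Krt15. All 4 keratin promoters were called in more cKO than WT samples, as were 41.3% of all consensus peaks of 2 to 4 samples, and no test was made on so few. Krt87 was called in WT 3, and the other 3 in no WT sample. Krt15 was called at percentiles of at most 0.180, so its peaks were among the lowest of their lists.

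Interleukins, chemokines and their receptors had 5 of 132 genes, 3.79%, near the 3.00% of all genes: the cytokines Il6 and Il31 and the receptors Il1r1, Il18r1 and Il17rc. Il6, an inflammatory cytokine, had a fold of 4.96 and 4.98 in WT 2 and WT 3 and 5.17 and 5.36 in cKO 1 and cKO 2. Il1r1, the receptor of interleukin 1, was called in WT 2 and WT 3 at 3.54 and 4.65. Hoxd1 and Hoxc9, homeobox genes that pattern the body axis, were 2 of 39 Hox genes. Zinc finger protein genes named Zfp had 6 of 385, 1.56%, and olfactory and vomeronasal receptor genes 3 of 1456.

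Marker lists of intestinal cell types held few partly called promoters, and no test was made over them. Of 20 enteroendocrine genes, 3 had one. Cck, the hormone cholecystokinin, had a fold of 5.66 and 5.19 in WT 2 and WT 3 and 6.45 and 6.59 in cKO 1 and cKO 3, and the gene had another promoter peak called in 5 samples. Neurog3, the transcription factor that starts enteroendocrine differentiation, was called in cKO 1 and cKO 3 at 4.26 and 4.89. Tph1, the enzyme of serotonin synthesis in enterochromaffin cells, was called in the same samples at 3.65 and 4.03. Neither Neurog3 nor Tph1 was called in cKO 2 or in any WT sample. Calls in cKO 1 and cKO 3 alone were common, at 7.10% of the partly called promoters and 8.75% of all consensus peaks of 2 to 4 samples.

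Of 13 tuft cell genes, 2 had a partly called promoter. Alox5, a lipoxygenase of leukotriene synthesis, had a fold of 3.52 in WT 2, 5.58 in WT 3 and 5.26 in cKO 2. Ptgs1, a cyclooxygenase of prostaglandin synthesis, had 6.09 in cKO 1 and 4.29 in cKO 3. The counts are too few to compare genotypes. In a bulk sample, fewer cells of a type and a less open promoter per cell cannot be told apart.

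The lists for absorptive enterocytes (29 genes), goblet cells (10), Paneth cells (7), stem and proliferating cells (20) and general crypt epithelium (9) held 0 partly called promoters. Of the crypt epithelium genes, 8 had a promoter peak in all 6 samples, as did 16 of the stem and proliferation genes and 18 of the absorptive genes. Goblet cell genes had such a peak at 3 of 10, with no promoter peak at 7, and Paneth cell genes at 0 of 7, with 3 called in 5 samples and 4 without a peak. At 3.00% of all genes, a count of 0 in lists of this size says little. Leukocyte genes had 0 of 39, with 4 called in all 6 samples, and mesenchymal and endothelial genes had 1 of 25, with 2 called in all 6 samples. That 1 was Myh11, the smooth muscle myosin heavy chain, with a fold of 5.61, 5.08, 6.92 and 4.41 in WT 2, WT 3, cKO 1 and cKO 2. Ribosomal protein genes (74), clustered histone genes (67) and proteasome subunit genes (38) also held 0, with 60, 39 and 31 called in all 6 samples.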

How the data were processed

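The authors performed ATAC-seq on crypt cells of 3 WT and 3 cKO mice. Their pipeline trimmed adapters, aligned reads to GRCm38 with BWA, removed blacklisted regions and called narrow peaks with MACS in each sample separately, with an effective genome size of 2.6 Gb. No input control was described. Each deposited peak has a score, a fold enrichment (the ratio of pileup to local background), a −log10 p and a −log10 q, the lowest −log10 q being 1.30 to 1.31. The fold and q values of the authors were used to rank, filter and describe peaks and were not tested between samples.

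Peaks were merged, matched to protein-coding transcript starts of GENCODE M21 and described with the GRCm38.p6 sequence. Groups follow the labelled genotype, and the numbers of a group mark separate samples, so p-values measure only their spread. A sample had a call if any of its peaks overlapped the consensus peak. Genotype means were compared by exact two-sided permutation tests over samples, with Benjamini-Hochberg adjustment. Read totals were not used here. The merging, matching and testing steps were tested on simulated data. Peaks on X, Y and other sequences were left out, except for a count on X. Alternatives are described in the closing section. Genes named are those called in all samples of 1 genotype alone, those with the highest ranks, those in fixed gene lists, those with extreme CpG ratios called in 4 samples and those nearest the distance limits. Sequences come from the first 8 named promoters without an annotated exon within 50 bp, of which 1 is not reported here. The promoters, gene lists and motifs were chosen with earlier results of these data known. The software was Python 3.11.15, pysam 0.24.0, scipy 1.17.1, pandas 2.3.3, numpy 2.4.6 and matplotlib 3.10.9.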

Additional observations from a re-analysis of the deposited data

How the results depend on the processing

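No p below 0.1 was possible for a per-sample genotype difference, so these alternatives compare its sign and size only. With peaks of −log10 q of at least 5, the cKO minus WT differences in the median CpG ratio, the CpG-poor share and the CpG-rich share turned to 0.0263, -0.959 and 2.34, 19 promoters were called in cKO samples alone and 1 in WT samples alone, and 47.0% were CpG-poor. With lists of equal length, the differences in the number called and in the number per 1000 peaks turned to -0.333 and -0.00838, 149 promoters were called in more cKO samples, and 8 were called in WT samples alone. With 50% overlap of windows, the difference per 1000 peaks was -0.163, and the rule found 1366 promoters, of which 419 were called in more cKO and 360 in more WT samples, 17 and 20 were called in 1 genotype alone, 46.3% were CpG-rich and 36.7% CpG-poor. With the annotated start of each gene in place of all transcript starts, it found 350, with 140 called in more cKO and 65 in more WT samples and 5 and 2 called in 1 genotype alone, since fewer start sites were searched. In the other cases the cause was not tested.

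Each replicate was left out in turn, with members kept at 2 to 3 of the other 5 samples. The number of promoters was 443 to 512, those called in the larger share of cKO samples 218 to 376 and of WT samples 136 to 266, and those called in every remaining sample of cKO or WT alone 10 to 55 and 4 to 35. With groups of 2 and 3 such shares cannot tie, so a promoter called in 1 sample of each counts for the group left with 2, and these counts are not comparable with the 235 and 123 of all 6 samples. The differences were -22.7 to 130.7 in the number called, -0.343 to 2.11 per 1000 peaks, 0.676 to 6.47 in the median percentile, -0.0420 to -0.00312 in the CpG ratio, 0.459 to 4.43 in the CpG-poor share and -5.81 to -3.04 in the CpG-rich share. The CpG-poor share of all the promoters was 49.2% to 52.1% and the CpG-rich share 30.6% to 32.5%. The number called and the number per 1000 peaks changed sign without WT 1 (-16 and -0.343) and without cKO 1 (-22.7 and -0.280). Most calls in WT samples alone, 35, came without WT 1, and most in cKO samples alone came without cKO 2 (55) or WT 3 (42). With WT 1 and cKO 2 both left out, an alternative added after the data were seen, 257 promoters were called in 2 of 4 samples, 62 in both cKO and 47 in both WT samples. CpG windows centred on the TSS kept the direction of every CpG result.

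The replicate numbers did not pair the samples. Over 32147 peaks of all 6 samples, deviations of log2 fold from the genotype mean correlated at -0.311, 0.0149 and 0.126 for WT and cKO samples with the same number. With the replicate block, tested by exact sign flips whose smallest p is 0.25, the differences were 58.3 in the number called (p = 1), 0.889 per 1000 peaks (p = 1), 2.67 in the percentile (p = 0.75), -0.0276 in the CpG ratio (p = 0.25), 2.51 in the CpG-poor share (p = 0.25) and -3.82 in the CpG-rich share (p = 0.25), and it changed no call.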

Other observations

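The X chromosome was outside the rule, and the same steps there found 26 promoters called in 2 to 4 samples among 327 protein-coding promoter peaks, 7.95%, against 5.67% on chromosomes 1 to 19. WT 1, WT 2 and WT 3 called 2, 15 and 20 of the 26, and cKO 1, cKO 2 and cKO 3 called 25, 5 and 14. The genes included Cldn2, a claudin of leaky epithelia, Sox3, a transcription factor of the nervous system, and Msn, which encodes moesin. The order of the samples was that of the list lengths except that WT 2 lay 1 call above cKO 3.

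Tff2, a trefoil peptide of mucous cells, was called in 1 WT and 2 cKO samples at a median percentile of 49.5. Reg3b, an antimicrobial lectin of the crypt, was called in 2 cKO samples and no WT sample at a median percentile of 21.9. Of all consensus peaks of 2 to 4 samples, 12.1% had this pattern. Cdkn1a, the cell cycle inhibitor p21, was called in 3 WT samples and 1 cKO sample at a median percentile of 0.676, near the bottom of each list. These 3 genes were chosen after their values were seen, and no test was made on them.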
